A study of Drosophila melanogaster with 2 samples.

Results

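Drosophila genes for mitochondrial ribosomal proteins were examined for sites of GFP-tagged Corto near their transcription start sites (TSSs). The genes were all protein-coding genes of the Ensembl annotation whose symbols start with mRpL or mRpS. There were 73 of them among 13945 protein-coding genes on the 6 chromosome arms. Of these, 47 encode proteins of the large subunit and 26 proteins of the small subunit. By arm, 11 lie on X, 12 on 2L, 12 on 2R, 17 on 3L and 21 on 3R. A single TSS is annotated for 67 of the genes, and 6 have more than 1.

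Corto is a chromodomain protein whose gene belongs to the Enhancers of Trithorax and Polycomb, so named because mutations act on both gene groups. Its sites were mapped by ChIP-seq with an anti-GFP antibody in whole embryos of mixed sex collected over 0 to 24 h. The embryos came from a transgenic line that stably expresses Corto with GFP at its C terminus. There was 1 group of 2 biological replicates, and no group without the tag was analysed here. The labels do not name the promoter that drives the fusion. All cell types of the embryo were pooled, so a weak site in many cells and a strong site in few cells cannot be told apart.

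Mitochondria translate the few proteins encoded by their own DNA, which are subunits of the respiratory chain and ATP synthase. They do so on ribosomes whose protein components are encoded in the nucleus, made in the cytoplasm and imported. Some of these proteins have counterparts in bacterial ribosomes, and others are found only in mitochondrial ribosomes. The large subunit holds the peptidyl transferase centre and the exit tunnel, and the small subunit decodes the mRNA.

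A promoter summit is a peak's highest point lying within 500 bp of any TSS of a gene. The optimal set held 2644 peaks, which the authors derived with the irreproducible discovery rate. The bound genes named below had the same rank in it as in the pooled list. An optimal peak need not have a summit at the same promoter in both replicate lists. The cytoplasmic ribosomal protein gene RpL18, for example, had an optimal signal of 89.9 and no promoter summit in replicate 2. The pooled list and each replicate list held 30000 entries, peaks and background together, so an entry there is weaker evidence of a site. The deposited peak signal has no stated scale and served only to describe and rank entries within a list. Read depth is unknown because the lists hold no read counts. With 2 replicates of 1 group no conditions could be compared, and shares are set beside those of all genes as descriptions.

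The stretches that carry the sites are printed on dm6, each 5′ to 3′ on the strand of the mitochondrial ribosomal gene, with matches to TATAAA or CGATA on either strand in capitals. The first 2 are the whole interval between the start sites of a mitochondrial ribosomal gene and its divergent neighbour, where the optimal summit lies. mRpL24 is at chr2L:4945362-4945578 on the minus strand, with the summit at base 86 of 217. mRpS2 is at chr2L:4850420-4850640 on the minus strand, with the summit at base 67 of 221.
mRpL24: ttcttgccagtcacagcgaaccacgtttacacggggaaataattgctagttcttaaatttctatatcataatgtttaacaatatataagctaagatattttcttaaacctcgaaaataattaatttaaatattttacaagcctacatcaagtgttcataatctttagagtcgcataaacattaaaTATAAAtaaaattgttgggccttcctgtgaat
mRpS2: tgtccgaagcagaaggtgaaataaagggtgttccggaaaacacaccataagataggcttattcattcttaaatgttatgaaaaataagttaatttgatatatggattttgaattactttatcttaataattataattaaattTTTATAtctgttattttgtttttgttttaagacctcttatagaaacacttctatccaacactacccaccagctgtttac

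The next stretch shows a site without a divergent neighbour, the 200 bases upstream of the mRpL10 TSS at chr2L:203579-203778 on the plus strand. Its optimal summit falls at base 115, and the capitals at its end spell the DNA replication-related element (DRE), TATCGATA. The last 2 stretches are the entries of the replicate 1 list at mRpS10 (chr3R:15229427-15229618, plus strand) and mRpS23 (chr2L:13835354-13835546, minus strand). They are shown because both ranked near the top of that list and had no replicate 2 summit within 500 bp of the ribosomal gene's TSS. Replicate 2 did have a weak summit 239 bp from the mRpS23 one, with a signal of 20.8. It lay outside that window, 622 bp from the mRpS23 TSS. The mRpS10 entry held 1 CGATA match and the mRpS23 entry held no match to any of the motifs searched.
mRpL10: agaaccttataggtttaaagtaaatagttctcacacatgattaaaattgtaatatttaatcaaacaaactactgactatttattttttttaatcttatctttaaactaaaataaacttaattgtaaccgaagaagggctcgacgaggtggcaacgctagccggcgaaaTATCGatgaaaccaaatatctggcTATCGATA
mRpS10: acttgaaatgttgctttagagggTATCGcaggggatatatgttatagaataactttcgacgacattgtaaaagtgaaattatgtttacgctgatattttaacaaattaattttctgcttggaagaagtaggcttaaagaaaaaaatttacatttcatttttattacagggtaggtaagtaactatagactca
mRpS23: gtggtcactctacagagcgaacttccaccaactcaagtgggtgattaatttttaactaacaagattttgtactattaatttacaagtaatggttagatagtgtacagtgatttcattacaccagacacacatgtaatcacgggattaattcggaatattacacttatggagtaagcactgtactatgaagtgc

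Optimal summits lay at the promoters of 10 of the 73 genes, which is 13.7% (95% Wilson interval 7.61 to 23.4), against 9.90% of all protein-coding genes. The interval for the mitochondrial ribosomal genes includes the share of all genes. The bound genes were mRpL2, mRpL10, mRpL17, mRpL20, mRpL23, mRpL24, mRpL37, mRpL41, mRpS2 and mRpS6. They made up 8 of the 47 large subunit genes (17.0%, interval 8.89 to 30.1) and 2 of the 26 small subunit genes (7.69%, interval 2.14 to 24.1), and the intervals overlap widely. When a summit counted for the nearest TSS alone, mRpL10, mRpL23, mRpL41 and mRpS6 were left. The share was then 5.48%, below the 7.66% of all genes treated the same way. Under this rule a summit between 2 start sites counts for the nearer one. A divergent neighbour within 500 bp was present for 72.6% of this family and 27.4% of all genes, and the shares were not matched for it.

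On arm 3L, 5 of the 17 mitochondrial ribosomal genes had an optimal summit, where 12.1% of all genes on that arm did. None of the 11 on X had one, which allows a share of up to 27.3%, and 7.19% of all genes on X had one. The counts were 3 of 12 on 2L (all genes on that arm 266 of 2657), 1 of 12 on 2R (all genes 9.5%) and 1 of 21 on 3R (all genes 10.2%). These counts per arm are too small to order the arms.

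Among the large subunit genes, mRpL41 had the strongest site. It encodes a protein found in mitochondrial but not bacterial ribosomes. Its peak at 2R 15217647 to 15217792 had a signal of 309 in the pooled list, 137 in replicate 1 and 173 in replicate 2. The summit lay 125 bp upstream of the TSS, with replicate summits 2 bp apart, and ranked 102 in the optimal set.

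mRpL23 and mRpL24 encode counterparts of bacterial proteins that sit at the exit of the peptide tunnel. The mRpL23 site (3L 2373487 to 2373735) had signals of 294 in the pooled list, 135 in replicate 1 and 156 in replicate 2. Its summit lay 73 bp downstream of the nearest of its 3 TSSs, inside the 5′ UTR, and was the only optimal summit of the 10 on that side. The mRpL24 site (2L 4945439 to 4945583) had signals of 218 in the pooled list, 138 in replicate 1 and 85.2 in replicate 2. The replicate summits there were 137 bp apart, the widest gap among the bound genes, and lay on either side of the pooled summit at base 86 of the sequence printed above.

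Both replicates placed mRpL41, mRpL23 and mRpL24 among their strongest sites of this gene family. In replicate 1 the 3 ranked 154, 164 and 144, and in replicate 2 they ranked 83, 110 and 615.

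mRpL10, whose bacterial counterpart anchors the stalk of the large subunit, had signals of 160 in the pooled list, 67.6 in replicate 1 and 84.6 in replicate 2. mRpL17, with a bacterial counterpart of the same number, had 143 in the pooled list, 64.2 in replicate 1 and 63.6 in replicate 2. mRpL2, whose bacterial counterpart lies near the peptidyl transferase centre, had 131 in the pooled list, 74.9 in replicate 1 and 53.5 in replicate 2. The mRpL2 summit lay 473 bp upstream of its TSS, the farthest of the 10, in a 5′ UTR of the neighbouring gene FoxK and 37 bp from a FoxK TSS.

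mRpL20, another protein shared with bacteria, had signals of 115 in the pooled list, 82.8 in replicate 1 and 37.0 in replicate 2. mRpL37, a protein found only in mitochondrial ribosomes, had 95.8 in the pooled list, 60.5 in replicate 1 and 33.7 in replicate 2. These were the bound genes with the widest gap in rank between replicates. mRpL20 ranked 644 in replicate 1 and 4184 in replicate 2, and mRpL37 ranked 1308 in replicate 1 and 5011 in replicate 2.

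The small subunit genes with an optimal summit both encode counterparts of bacterial proteins. mRpS2 had signals of 126 in the pooled list, 67.0 in replicate 1 and 63.6 in replicate 2, with the summit 155 bp upstream of its TSS. mRpS6 had 110 in the pooled list, 55.5 in replicate 1 and 50.6 in replicate 2, with the summit 85 bp upstream. Their replicate values were close, with ranks of 1039 and 1559 in replicate 1 and of 1304 and 2185 in replicate 2.

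All 10 optimal sites had a summit within 200 bp in both replicate lists, and the gap between the replicate summits had a median of 23 bp (range 1 to 137). The irreproducible discovery rate favours agreement between replicates, so such agreement is partly built into the optimal set. The same values were not taken over all optimal promoter summits. Summits lay upstream of the TSS at 9 of the 10 genes, 90.0%, where 85.6% of bound genes of all kinds had theirs upstream. The median signal of the optimal promoter summits was 136.9 at mitochondrial ribosomal genes and 119.9 at all bound genes.

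**Figure D1:**
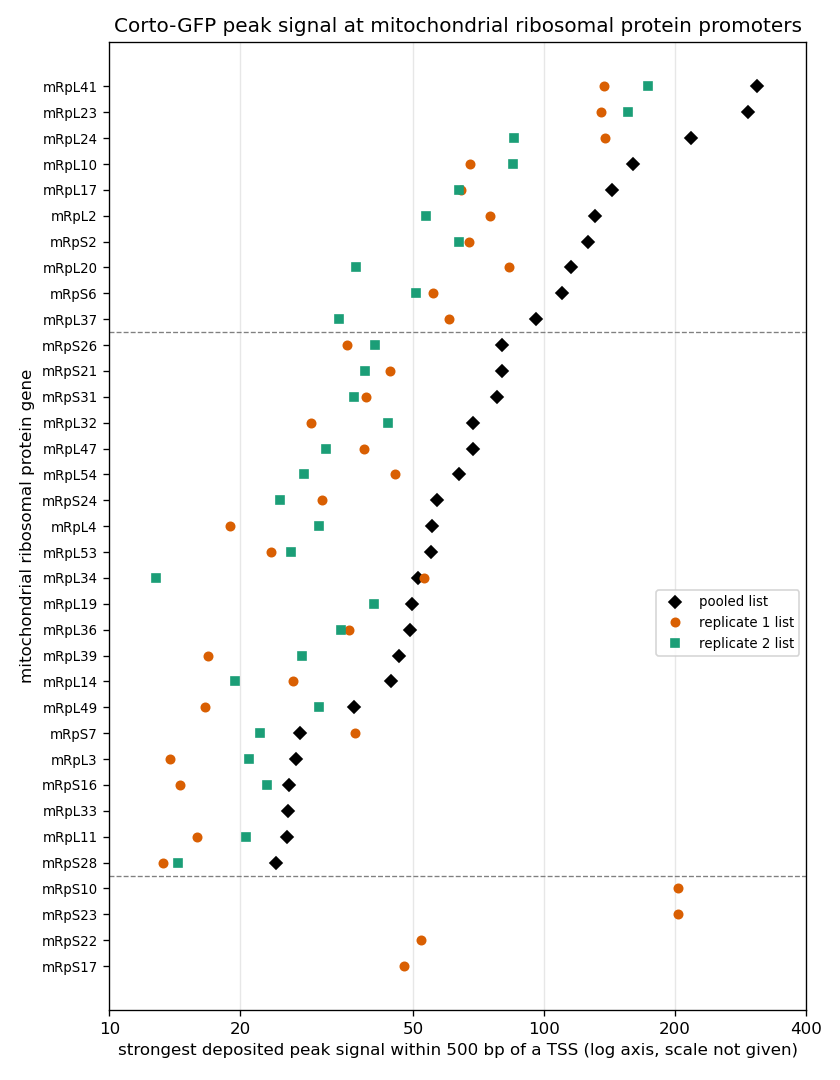
Deposited peak signal (log axis, scale not given) of the strongest promoter summit in the pooled list (diamonds), the replicate 1 list (circles) and the replicate 2 list (squares) for 31 mitochondrial ribosomal protein genes with a pooled summit, and below the lower dashed line 4 genes with a strong summit in replicate 1 but none in the pooled list. The 10 genes above the upper dashed line have an optimal summit, and mRpS10 and mRpS23 have a single point near 203.5.

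The position of each site is set against its neighbour in the plot of summit positions. Of the 73 genes, 53 had a divergent partner, a protein-coding gene on the opposite strand with a TSS at most 500 bp upstream. That is 72.6% (interval 61.4 to 81.5), against 27.4% of all protein-coding genes. The median distance between the paired start sites was 264 bp for mitochondrial ribosomal genes and 244 bp for all genes with a partner. With a partner required within 250 bp, the shares were 34.2% of mitochondrial ribosomal genes and 14.2% of all genes. The mitochondrial ribosomal genes were also short, with a median span of 909 bp against 2166 bp for all genes.

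Of the 10 bound genes, 8 had a partner (15.1% of the 53 genes with a partner, against 2 of the 20 without), and each of those 8 summits also lay within 500 bp of a TSS of the partner. At 6 of them the summit lay between the paired start sites, and which of the 2 genes such a site belongs to cannot be told from the lists. mRpL24 was paired with betaggt-I, which encodes a subunit of geranylgeranyl transferase, at 218 bp between the start sites. Its summit was 86 bp from the partner's TSS and 132 bp from its own. mRpS2 was paired with Mon1, which encodes a factor in endosome maturation, at 222 bp, and its summit was 67 bp from the Mon1 TSS. In both pairs the summit was nearer to the partner than to the ribosomal gene.

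mRpL17 shared 399 bp with Tudor-SN, which encodes a nuclease-domain protein, and its summit was 181 bp from the Tudor-SN TSS. mRpL20 shared 399 bp with Icmt, which encodes an enzyme that methylates prenylated proteins, and its summit was 196 bp from the Icmt TSS. Both summits thus fell near the middle of the interval. mRpS6 shared 448 bp with Cip4, which encodes a membrane-bending adaptor protein, and its summit was 363 bp from the Cip4 TSS, nearer to the ribosomal gene. mRpL23 has 3 annotated TSSs, and the one nearest to CG9004 was 24 bp from the CG9004 TSS. The summit lay 123 bp from the TSS of CG9004, on the ribosomal gene's side. Its distance of 73 bp given above is from another mRpL23 TSS, the one nearest to the summit.

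The partner TSS of FoxK, a forkhead transcription factor gene, was 64 bp from that of mRpL2, but the summit lay beyond that interval. FoxK had a stronger optimal summit at another of its start sites, with a signal of 153. CenG1A, the partner of mRpS23, and hzg, the partner of mRpS31, had an optimal summit while their ribosomal neighbour had none. The CenG1A summit (signal 110) lay at 2L 13878514, at another start site, and the hzg summit (signal 94.9) at 3L 16004640. No other partner of an unbound mitochondrial ribosomal gene had an optimal summit. In all, 10 of the 54 partner genes were bound, 18.5%, against 9.90% of all genes, but 8 of the 10 had the summit already counted for the ribosomal gene in their window.

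**Figure D2:**
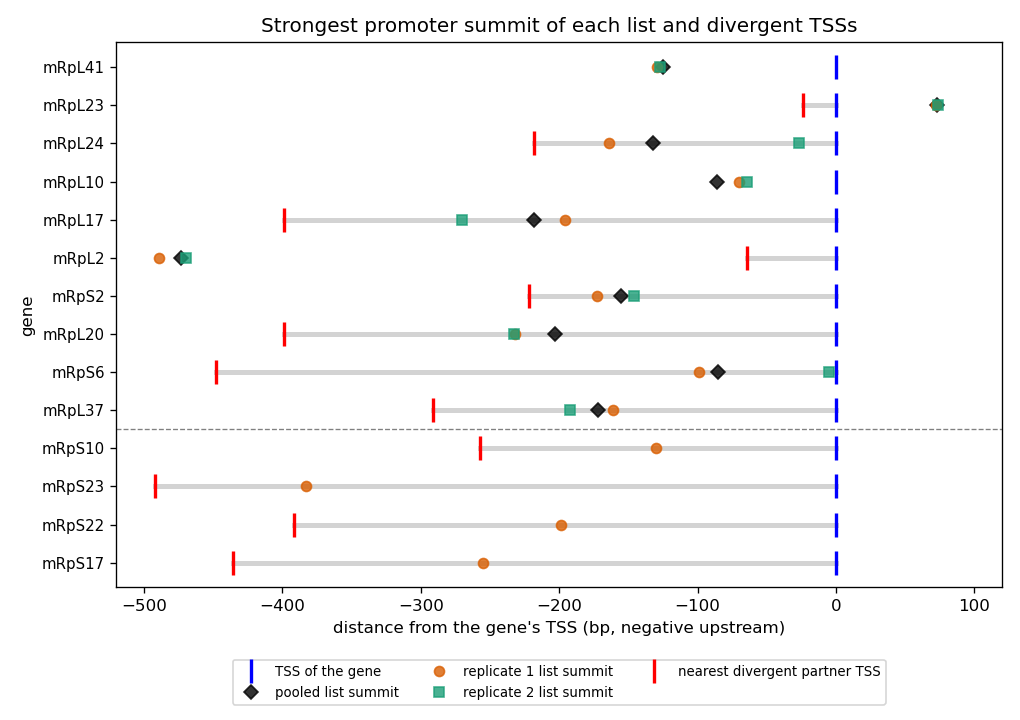
Position of the strongest promoter summit in each list relative to the TSS of the gene (bp, negative upstream) for the 10 bound genes above the dashed line and 4 genes with a strong summit in replicate 1 only below it. Grey bars join the TSS to the nearest divergent partner TSS, and 6 of the pooled summits of the bound genes, among them those of mRpL24 and mRpS2, fall on the bar. For mRpL23, which has several TSSs, the summits are measured from the TSS nearest to them and the bar from the TSS nearest to the partner.

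Genes with 1 TSS were compared within classes of neighbour. With a divergent partner, 7 of 48 mitochondrial ribosomal genes had an optimal summit, 14.6%, and 13.6% of all such genes did. Without a partner, the share was 2 of 19, 10.5%, with an interval of 2.94 to 31.4, and 4.12% of all such genes did. In the pooled list the shares with a partner were 22 of 48 mitochondrial ribosomal genes (45.8%, interval 32.6 to 59.7) and 36.1% of all such genes. Without a partner they were 8 of 19 (42.1%, interval 23.1 to 63.7) and 28.8%. Both intervals include the share of all such genes. No partner was itself a mitochondrial ribosomal gene or one of the other mitochondrial gene expression genes described below. One partner encodes a subunit of ATP synthase, ATPsynD beside mRpL55, and neither gene of that pair had an optimal summit.

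Below the optimal set, 21 further genes had a promoter summit in the pooled list, for 31 of 73 in all. That is 42.5% (interval 31.8 to 53.9), against 39.1% of all protein-coding genes. The share was below that of all genes when a summit counted for the nearest TSS alone (28.8%, all genes 34.3%) and with a window of 1000 bp (46.6%, all genes 47.1%), and the replicate 1 list alone gave 67.1% (all genes 48.0%). Their signals were below 81.2, the lowest in the optimal set, and ran down to 24.2 at mRpS28. The median over the 31 genes was 63.6, where it was 48.8 over all genes with a pooled summit. The pooled summits lay a median of 116 bp upstream (quartiles 168 and 20 bp upstream), and 80.6% were upstream against 75.4% for all genes.

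Just outside the optimal set were 3 small subunit genes. mRpS26, a protein of mitochondrial ribosomes only, had signals of 80.0 in the pooled list, 35.2 in replicate 1 and 40.9 in replicate 2. mRpS21, with a bacterial counterpart, had 79.8 in the pooled list, 44.3 in replicate 1 and 38.7 in replicate 2. mRpS31, another mitochondrial protein, had 77.9 in the pooled list, 38.9 in replicate 1 and 36.5 in replicate 2. The replicates differed little at these 3 genes, and the mRpS31 summit lay 4 bp from its TSS.

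The next 7 by pooled signal were mRpL47 at 68.4, mRpL32 at 68.4, mRpL54 at 63.6, mRpS24 at 56.6, mRpL4 at 55.3, mRpL53 at 55.0 and mRpL34 at 51.3. mRpL32 is processed by a mitochondrial protease before assembly in yeast, and the bacterial counterpart of mRpL4 lines the exit tunnel. All 7 had a promoter summit in both replicate lists, at mRpL54 at different sites. The signals of mRpL34 were the most unequal, at 53.0 in replicate 1 (rank 1742) and 12.8 in replicate 2 (rank 27539). mRpL4 leaned the other way, at 18.9 in replicate 1 and 30.3 in replicate 2.

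Neighbours of these genes had varied roles. mRpS26 was paired with CG13698, and mRpS21 with Droj2, which encodes a DnaJ-type chaperone. mRpL47 lay beside Kdm3, a histone demethylase gene, and CG8176. mRpL32 was paired with qless, which encodes an enzyme of coenzyme Q synthesis, mRpL54 with CG15653, and mRpS24 with Apc2, an adenomatous polyposis coli gene. mRpL53 lay beside AGO1, which encodes the Argonaute protein of the miRNA pathway, and mRpL34 beside Dg, which encodes dystroglycan. None of these partners had an optimal summit.

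Both replicate lists held a promoter summit for 33 of the 73 genes, 45.2% (interval 34.3 to 56.6), against 29.3% of all protein-coding genes. With 1 TSS and a divergent partner the shares were 47.9% (interval 34.5 to 61.7) and 29.6% of all such genes. With 1 TSS and no partner they were 47.4% (interval 27.3 to 68.3) and 18.1%. These intervals lay above the shares of all such genes, as a description of the lists. The replicate summits were within 200 bp of each other at 28 of the 33 (84.8%), and this was also 84.8% over all genes in both lists. The 5 without such a pair were mRpL45, mRpL54, mRpS7, mRpS11 and mRpS16. Replicate 1 alone had one for 16 genes (21.9%), against 18.7% of all genes. Among genes with 1 TSS and a divergent partner the order was reversed, at 18.8% against 29.2% of all such genes. Without a partner the shares were 21.1% and 15.4%. Replicate 2 alone had one for 3 genes (4.11%), against 8.36% of all genes. Taken whole, the replicate 1 list reached 49 genes (67.1%, all genes 48.0%) and the replicate 2 list 36 genes (49.3%, all genes 37.7%). With 1 TSS and a divergent partner, the replicate 1 share was 66.7% (all such genes 58.8%) and the replicate 2 share 52.1% (all such genes 34.3%). With 1 TSS and no partner they were 68.4% (all such genes 33.4%) and 52.6% (all such genes 27.7%). The 2 lists thus gave unequal counts for this family, with more genes in replicate 1, as was so for all genes. Over the 33 genes in both lists the signals had a Spearman correlation of 0.76 across genes, and over 4085 genes of all kinds it was 0.67. Genes are not independent replicates, and these values only describe the lists.

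The inequality was also present in the strongest 2644 entries of each replicate. Replicate 1 placed such an entry at 17 genes (23.3%, all genes 11.8%) and replicate 2 at 8 genes (11.0%, all genes 8.78%). Among genes with 1 TSS and a divergent partner, the family's shares were closer to those of all such genes, but not to each other. They were 27.1% in replicate 1 (all such genes 19.4%) and 10.4% in replicate 2 (all such genes 10.1%). Without a partner they were 10.5% in replicate 1 (all such genes 4.53%) and 10.5% in replicate 2 (all such genes 3.68%). The 8 of replicate 2 were all among the 17 of replicate 1 and among the 10 optimal genes. The 10 optimal genes were all among the 17, and the other 7 were mRpL34, mRpL54, mRpS10, mRpS17, mRpS21, mRpS22 and mRpS23.

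Of these, mRpS10, mRpS17, mRpS22 and mRpS23, all of the small subunit, had no promoter summit in replicate 2 or in the pooled list. They are named here because their values stood out. mRpS10, whose bacterial counterpart also acts in transcription antitermination, had a signal of 203.5 in replicate 1, rank 42 of 30000. mRpS23, a protein of mitochondrial ribosomes only, had 203.5 as well, rank 43. Both values lay above every other promoter summit of the family in that list, mRpL24 coming next at 138. Near mRpS10 the closest replicate 2 summit was 2554 bp away with a signal of 15.9. Near mRpS23 it was 239 bp away, 622 bp from the TSS, with a signal of 20.8.

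mRpS22, a mitochondrial protein, had a signal of 52.0 in replicate 1, rank 1821, and mRpS17, with a bacterial counterpart, had 47.7, rank 2184. Their closest replicate 2 summits were 4228 and 9126 bp away. All 4 genes have a divergent partner and all 4 summits lay between the paired start sites. The neighbours were Art3 for mRpS10, CenG1A for mRpS23, CG5003 for mRpS22 and Nop60B for mRpS17.

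The 2 strongest of these entries were narrow. The mRpS10 entry was 192 bp wide and the mRpS23 entry 193 bp, where 99.3% of the replicate 1 list had a width of 384 bp. Narrow entries were common among strong ones, however, with 42 of the strongest 100 under 200 bp wide. The peaks at mRpL41 and mRpL24, seen in both replicates, were 146 and 145 bp wide in the optimal set. Among the strongest 100 entries of replicate 1, 3 had no pooled summit within 500 bp, and 2 of those were the entries at mRpS10 and mRpS23. Among the strongest 100 of replicate 2 the number was 0. Whether the width of these entries has a part in their absence from the other lists was not tested.

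**Figure D3:**
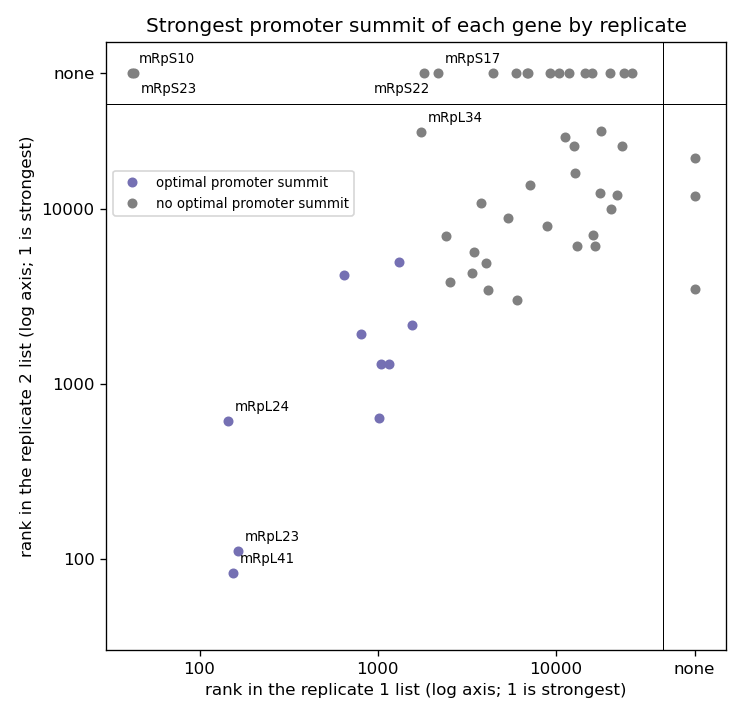
Rank of the strongest promoter summit of each mitochondrial ribosomal protein gene in the replicate 1 list (x axis) and the replicate 2 list (y axis), both on log axes with rank 1 the strongest, and in the margins the genes with no promoter summit in one list. The 10 genes with an optimal summit fill the lower left, mRpS10 and mRpS23 sit in the upper margin at ranks 42 and 43, and 20 genes with no summit in either list within 500 bp of a TSS, and mRpL33, whose replicate summits fall just beyond, are not drawn.

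No summit of any list was found within 500 bp for 20 genes, 12 of the large and 8 of the small subunit. They include mRpS29, the counterpart of the human GTP-binding protein DAP3, and mRpL44, which has a ribonuclease III fold in humans. How many of all protein-coding genes lacked a summit in every list was not counted. In each list taken alone, a smaller share of all genes than of this family had a promoter summit. The shares were 48.0% against 67.1% in replicate 1, 37.7% against 49.3% in replicate 2 and 39.1% against 42.5% in the pooled list. Summits in both replicate lists but not in the pooled list were found at mRpL18, mRpL45, mRpS11 and mRpS25, with signals between 12.7 and 20.6. At mRpL45 and mRpS11 the replicate summits lay at different sites, over 200 bp apart. Replicate 2 alone had a summit at mRpL35 and mRpS18B, and also at mRpL19, which the pooled list held too. mRpL33 had a pooled summit 482 bp downstream of its TSS, with replicate summits 46 bp (signal 21.0 in replicate 1) and 85 bp (14.8 in replicate 2) from it that fell just outside the 500 bp window. For the 42 genes without a pooled promoter summit the nearest pooled summit was a median of 6624 bp away, and for 3 of them it was within 1000 bp.

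Promoters, here 250 bases upstream to 50 bases downstream of a TSS, were searched for 7 motifs on both strands. The DRE, TATCGATA, which is bound by the factor Dref in Drosophila and contains CGATA, occurred in 15 of 73 promoters of mitochondrial ribosomal genes (20.5%) and in 9.36% of all promoters. CGATA itself occurred in 58.9% and in 47.4% of all. GAGAG, part of the sequence that GAGA factor binds, occurred in 12 of 73 (16.4%) and in 29.7% of all. The DRE share was thus higher and the GAGAG share lower than among all promoters, as a description of sequence alone.

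Among the 10 bound genes GAGAG occurred in 4 promoters and the DRE in 3. Over the promoters of all 1381 bound genes the shares were 35.0% for GAGAG and 13.1% for the DRE. Among the 63 other mitochondrial ribosomal genes GAGAG occurred in 8 (12.7%) and the DRE in 12 (19.0%). The shares over all genes without an optimal summit were not taken, so bound and unbound members are not contrasted here. The core of Ohler motif 1, GGTCACAC, occurred in 8 promoters (11.0%, all promoters 7.7%), and in none of the bound 10. The E-box CACGTG occurred in 6.85% (all 4.2%), GCCAT in 34.2% (all 41.2%) and TATAAA in 46.6% (all 45.8%). Within 100 bp of the optimal summits, TATAAA was found at 6 of 10 and GAGAG at 3 of 10, where the shares over all optimal promoter summits were 38.3% and 32.9%. A match is a run of letters and was not tested as a site.

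The other genes of mitochondrial gene expression were taken from a list of 43 symbols, of which 40 matched the annotation. Of these, 3 had an optimal summit, 7.5% (interval 2.58 to 19.9), against 9.90% of all genes. Among the strongest 2644 entries of replicate 2 alone the share was 2.5%, from 1 gene. SLIRP2, an RNA-binding protein gene, had a signal of 288 at 3R 8650940, with 141 in replicate 1 and 140 in replicate 2. mtTFB1, which encodes a methyltransferase of mitochondrial rRNA, had 97.4 at 3L 11708781, with 60.6 in replicate 1 and 38.9 in replicate 2. mtSSB, which encodes the single-stranded DNA-binding protein of mitochondrial DNA replication, had 87.5 at 3R 16205374, with 37.0 in replicate 1 and 42.1 in replicate 2. None of the 15 matched tRNA synthetase genes had one, which allows up to 3 of 15, and none of the 9 translation factor genes, which allows up to 3 of 9. In the pooled list 3 of the 15 and 4 of the 9 had one. tko and bonsai, small subunit genes named outside the mRp scheme, had none either.

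Shares with a summit in both replicate lists were 45.2% of mitochondrial ribosomal genes, 22.5% of the other mitochondrial gene expression genes, 30.8% of 91 oxidative phosphorylation genes and 60.5% of 86 cytoplasmic ribosomal protein genes. For optimal summits the shares were 13.7%, 7.5%, 7.69% and 22.1% in the same order of gene groups. A divergent partner was present for 53 of 73, 20 of 40, 40 of 91 and 34 of 86 genes in that order. The intervals for optimal summits overlap between mitochondrial ribosomal genes and each of the other groups. So do those for a summit in both replicate lists, which were 34.3 to 56.6, 12.3 to 37.5, 22.2 to 40.9 and 49.9 to 70.1 in that order. Overlap of intervals does not show that shares are alike. For a divergent partner the intervals were 61.4 to 81.5, 35.2 to 64.8, 34.2 to 54.2 and 29.9 to 50.1. There the interval of the mitochondrial ribosomal genes overlaps that of the other mitochondrial gene expression genes alone. Among the oxidative phosphorylation genes the strongest promoter summit was at ND-ASHI, a complex I subunit gene, with a signal of 190.

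**Figure D4:**
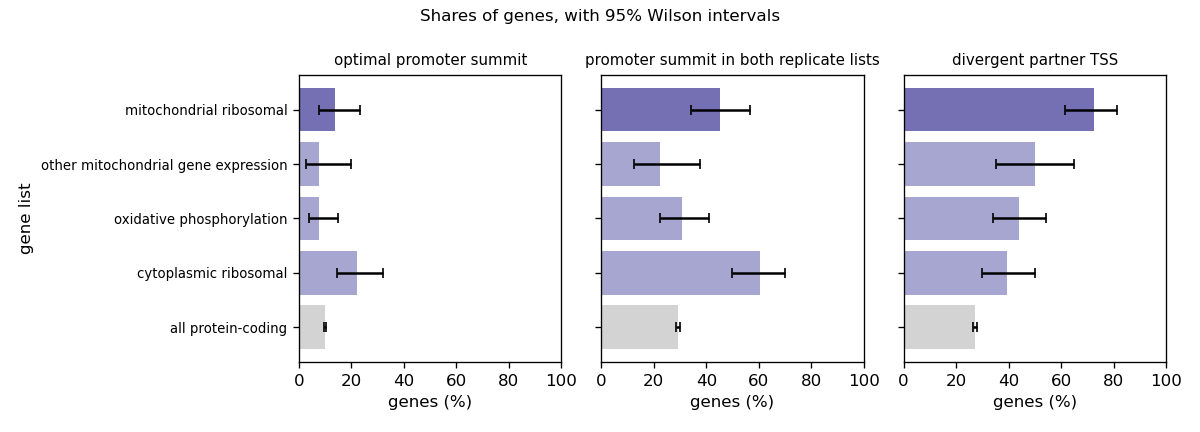
Shares of genes (%) with an optimal promoter summit, with a promoter summit in both replicate lists and with a divergent partner TSS, for mitochondrial ribosomal protein genes, 3 other gene groups and all protein-coding genes, with 95% Wilson intervals as error bars. The mitochondrial ribosomal genes stand at 13.7%, 45.2% and 72.6%, and all protein-coding genes at 9.90%, 29.3% and 27.4%.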

How the data were processed

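Whole-embryo ChIP-seq of Corto-GFP gave 2 biological replicates of 1 group. Per the deposited text notes, the authors called peaks and background on each replicate and on both pooled, with a control, and derived the optimal set with the irreproducible discovery rate. The deposited signal column was used as written. No scale is stated for it, and the aligner, the caller and the filters were not given in the sources used here. No read counts were used, so intervals (95% Wilson) cover counting error in numbers of genes only. A count of 0 was set against 3 counts.

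Summits on dm6 were joined to TSSs of protein-coding genes of Ensembl release 115 (BDGP6.54) with Python 3.11.15, pandas 2.3.3 and numpy 2.4.6, and the join was tested on simulated data. Sequence was read from NCBI's copy of that assembly, in which 99.5% of coding starts read ATG. The dm3 lists were not used here. Members and lists were chosen with earlier results of these data known, so no test of a list was made.

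Named genes were all members with an optimal summit, the next 10 by pooled signal, their partners and the bound genes of the other mitochondrial list. Genes with strong replicate 1 entries alone, and examples among those with none, were added after their values were seen. One partner gene that the rule names is not reported here.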

Additional observations from a re-analysis of the deposited data

How the results depend on the processing

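Of 27 alternatives, 19 kept the value within its interval or spread and, for shares, the number of genes within 1.5 times, and 8 did not. The count of 19 overstates stability. Counting members within 5 kb once merged no genes, so it could not change the value. For the median offset the spread was taken from the replicate medians, which were themselves among the alternatives, so their being kept carries little weight. Giving each summit to its nearest TSS only left 5.48% of mitochondrial ribosomal genes with an optimal summit (all genes 7.66%) and 28.8% with a pooled summit (all genes 34.3%), so both shares fell below those of all genes. Neither share was matched for a divergent partner, which more of this family than of all genes had. A single replicate gives neither an optimal set nor a pooled list, so its strongest 2644 entries and its whole list stood in for them. The strongest entries gave shares of 11.0% (replicate 2, all genes 8.78%) to 23.3% (replicate 1, all genes 11.8%), and the whole lists 49.3% (replicate 2, all genes 37.7%) to 67.1% (replicate 1, all genes 48.0%). For the other mitochondrial gene expression genes the strongest entries gave 2.5% to 7.5%. The share with a summit in both replicate lists was 34.2% with a window of 250 bp (all genes 20.5%) and 26.0% in the strongest 10000 entries (all genes 17.3%). The partner share was 34.2% within 250 bp. With a window of 1000 bp the pooled share was 46.6%, where that of all genes was 47.1%. No paired analysis was possible because there was 1 group.

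The lists give no reads, so the depth behind a summit is unknown, and a gene without a summit had none detected in these lists. The intervals treat genes as independent, although neighbouring genes can share a summit. Only 2 replicates were available, and they gave unequal counts for this gene family.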
